A study of Mus musculus with 6 samples.

Results

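This account describes the small nucleolar RNAs (snoRNAs) and the snoRNA host transcripts of mouse lung endothelial cells. Members were every feature annotated as snoRNA or as scaRNA (the Cajal body relatives of snoRNAs) with at least 30 counts summed over the 6 libraries, and every locus named Snhg or Gas5. Of 55232 features, 88 met the rule: 71 snoRNAs and 17 Snhg or Gas5 loci. No scaRNA did, the highest having 26 counts. The cells were mouse pulmonary microvascular endothelial cells (MPVECs), labelled as a cell line, grown below a second cell type for 12 h. The upper cells were TCMK-1, a line of mouse kidney tubule epithelium. They were left untreated for the 3 control samples. For the 3 samples of the repletion group they had been depleted of ATP and then repleted, a state the labels call IR. The endothelial cells of both groups received no treatment of their own. The libraries were made from total RNA and held 15582349 to 17817618 counts.

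SnoRNAs guide the chemical modification of ribosomal and spliceosomal RNA. Box C/D snoRNAs, with the conserved boxes C and D near their ends, direct ribose methylation by fibrillarin, while H/ACA snoRNAs, with an H box in the middle and an ACA near the 3′ end, direct pseudouridylation by dyskerin. Most vertebrate snoRNAs lie in introns and are released from the spliced intron of a host gene, often one that encodes a ribosomal or translation protein. Most Snhg loci, and Gas5, are hosts. Their own spliced RNA encodes no known functional protein in most cases and is typically degraded by nonsense-mediated decay.

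The sequences of 7 snoRNAs that carry the values below were taken from GENCODE M21 transcripts on GRCm38 and are written 5′ to 3′. The first 6 are snoRNAs past the test's threshold, followed by Gm22571, a C/D-type snoRNA in Rpl4 and among the most abundant. Capitals mark a box C (TGATGA) starting in the first 20 bases together with a box D (CTGA) in the last 20, or an H box (ANANNA) starting within 20 bases of the middle together with ACA exactly 3 bases before the 3′ end. Sequences all in lower case had neither pair of exact matches, and no match says only that these letters are not in those windows.
Gm23172: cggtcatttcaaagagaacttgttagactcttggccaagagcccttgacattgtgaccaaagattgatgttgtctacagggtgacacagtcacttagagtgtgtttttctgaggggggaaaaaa
Snord91a: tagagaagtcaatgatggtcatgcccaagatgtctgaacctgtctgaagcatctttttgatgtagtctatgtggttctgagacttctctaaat
Snora20: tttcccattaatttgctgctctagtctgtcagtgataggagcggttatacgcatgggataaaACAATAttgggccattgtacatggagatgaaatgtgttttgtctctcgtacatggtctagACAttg
Gm22748: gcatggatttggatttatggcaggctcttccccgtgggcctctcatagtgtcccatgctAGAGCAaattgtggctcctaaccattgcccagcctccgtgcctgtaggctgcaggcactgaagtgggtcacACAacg
Gm25517: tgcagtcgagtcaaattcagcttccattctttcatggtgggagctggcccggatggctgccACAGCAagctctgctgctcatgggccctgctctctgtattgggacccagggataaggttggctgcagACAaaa
Snora78: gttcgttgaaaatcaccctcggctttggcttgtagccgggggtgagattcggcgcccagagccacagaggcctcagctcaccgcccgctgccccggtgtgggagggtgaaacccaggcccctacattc
Gm22571: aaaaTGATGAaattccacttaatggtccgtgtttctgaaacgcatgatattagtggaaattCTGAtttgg
All lie in introns of the genes named with them. Gm23172 lies in intron 13 of Mertk at chr2:128780376-128780499, Snord91a in intron 10 of Tsr1 at chr11:74905424-74905516 and Snora20 in intron 9 of Tcp1 at chr17:12922790-12922917, each on the plus strand. Gm22748 lies in intron 1 of Odc1 at chr12:17546146-17546281 on the plus strand. Gm25517 lies in intron 4 of Gtf2f2 at chr14:75972486-75972619 and Snora78 in intron 1 of Snhg9 at chr17:24719676-24719803, each on the minus strand. Gm22571 lies in intron 4 of Rpl4 at chr9:64175873-64175942 on the plus strand.

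Searched on the RNA's own strand, 17 of the 71 snoRNA members (23.9%) held the C and D pair and 26 (36.6%) the H and ACA pair. No member held both pairs. Among the 1487 snoRNA and scaRNA features that were not members, 298 held the first and 15.6% the second. In 32851 RefSeq promoter windows (GRCm38) searched on the gene's strand, the C and D pair occurred in 0.0457% of windows of 76 bases and the H and ACA pair in 0.813% of windows of 133 bases. Names gave 18 members as C/D, of which 10 held the C and D pair, and 12 as H/ACA, of which 10 held the H and ACA pair. Of the 41 members whose names give no class, 7 held the C and D pair and 16 the H and ACA pair. Members with the C and D pair were 65 to 238 bases long (median 76), and those with the H and ACA pair 126 to 203 (median 133.5).

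The snoRNA members lay in introns of at least 1 transcript or outside annotated genes of their strand, and 3 of them also overlapped an exon of another transcript of that strand. Of 1558 snoRNA and scaRNA features, 240 had at least 1 count, and the 71 members held 84.7% of their 9362 counts. The members' summed counts, which chose them, ran from 30 to 791 with a median of 74. Just inside the threshold were 3 members with 30 to 34 counts, and just outside it were 8 features with 25 to 29. A gene on the same strand contained 63 members, all wholly within an intron of at least 1 of its transcripts. Such a gene is called the host here. In contrast, all 131 snoRNA features wholly covered by annotated exons of the same strand had 0 counts, whereas of 534 hosted snoRNA features free of such exons 60 reached 30 counts. The best-known clusters fell on the uncounted side, since the 10 snoRNA features inside Gas5, the 8 inside Snhg1 and the 5 inside Snhg12 lie wholly in annotated exons. Reads of a mature snoRNA and reads of the unspliced intron around it cannot be told apart in these counts.

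Together, the snoRNA members took 83.8, 71.8 and 65.9 CPM in control samples 1 to 3, where CPM are counts scaled to a common library total. In repletion samples 1 to 3 they took 87.9, 102 and 72.5. The groups overlapped, with means of 73.8 ± 9.11 and 87.5 ± 14.8 CPM (SD, n = 3 each). An exact two-sided permutation test gave p = 0.2, where 3 samples against 3 cannot go below 0.1. The difference of 13.6 CPM was 6.38 without repletion sample 2, the library with the largest share, and 21.1 without repletion sample 3. A lower value of a gene in such bulk samples can mean fewer cells of a type or less RNA per cell, which cannot be told apart.

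Among the most abundant snoRNAs, Gm24119 in Slc25a3, the mitochondrial phosphate carrier gene, had 74, 44 and 62 counts against 72, 110 and 65. Repletion sample 2 was the highest and the groups overlapped. Gm25835 in the translation factor gene Eif4a1 had 59, 83 and 53 counts against 11, 75 and 31. Its log2 fold change, repletion over control, of -0.75 ± 0.49 (SE; edgeR adjusted p = 0.238) became -1.69 without repletion sample 2 (adjusted p = 0.00906, against 0.00906 to 0.585 over all alternatives).

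Snora31 in Tpt1, an abundant translationally controlled gene, had 47, 44 and 60 control counts against 57, 35 and 55, and the groups overlapped. Gm22571 in Rpl4 had 50, 31 and 21 against 54, 80 and 48, with control sample 1 above the lowest repletion sample. Its log2 fold change was 0.80 ± 0.40 (adjusted p = 0.119), and without control sample 1 it passed as a rise (adjusted p = 0.0413, against 0.0413 to 0.388 over all alternatives). Snord73a in Rps3a1 had 65, 34 and 29 against 27, 45 and 39, and Snord72 in Rpl37 had 39, 21 and 30 against 18, 50 and 26. Neither pair of groups separated. Gm25945 in Khdc4 did separate, with 15, 22 and 20 control counts against 41, 33 and 29, but its log2 fold change of 0.82 ± 0.45 had an adjusted p of 0.159. Also among the 10 most abundant, Gm22748 and Gm25517 passed the test and are described with the falls. Levels in the figures and means are CPM after TMM scaling, which also adjusts for composition.

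**Figure D1:**
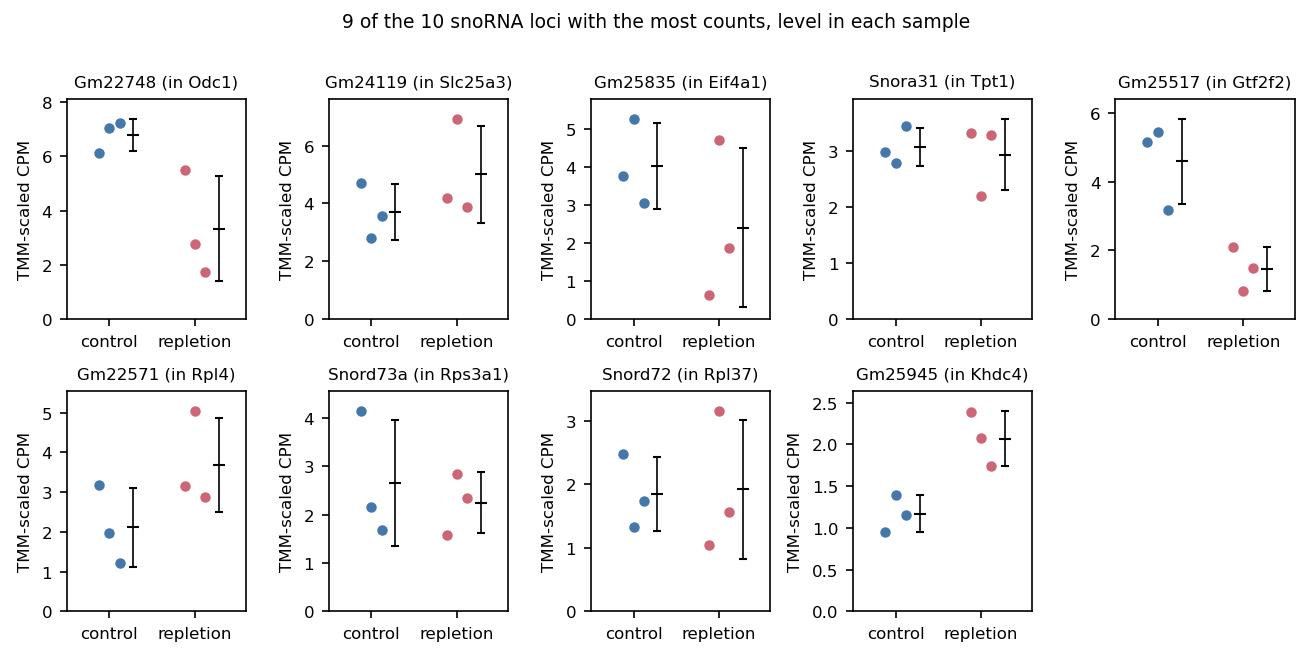
TMM-scaled CPM (vertical axis, from 0, scale differs by panel) of 9 of the 10 snoRNAs with the most counts in 3 control and 3 repletion samples; points are samples, the dash and bars are the mean and SD. Gm22748 and Gm25517 lie lower in every repletion sample, Gm25945 lies higher, and the other 6 overlap.

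The threshold was an adjusted p of 0.05 in the fit of 13804 features that passed a filter on low counts (edgeR's filterByExpr). By it, 20.5% of them rose and 19.2% fell. Of the 71 snoRNA members, 47 passed the filter. Among these 5 rose, or 10.6%, and 3 fell, or 6.38%. The filter asks for about 10 counts in 3 libraries, which 1 group alone can supply. The 5 rises reached this in all 3 libraries of the repletion group but not of the controls. Snora78, among the falls, did so only in the controls. For these loci, passing the filter is therefore not separate from direction. With no filter, 4 of the 71 members rose and 3 fell. Of the 4361 tested features in the members' range of summed counts, 18.1% rose and 7.18% fell, so the share of falls was near that of features with like counts. The difference in shares was not tested. Groups did not overlap for 9 of the 47 tested members in the higher direction and for 4 in the lower, beside 25.0% and 25.4% of all tested features. Of the 4361 tested features at like counts, 1087 and 595 did not overlap. Over all 71 members the numbers were 10 and 5. With no filter, 46 of the 71 members had a positive log2 fold change, with a median of 0.53. Of 6009 features in the same range of summed counts, 59.3% were positive and the median was 0.24. For the 400 long intergenic RNAs among them, 66.8% were positive and the median was 0.53, about the members' own values. For the 43 sense intronic transcripts, 58.1% were positive and the median was 0.18. For the 3264 protein-coding genes, 60.8% were positive and the median was 0.25. Counts called were 3 rises without each of 5 of the libraries (5 without repletion sample 1) and 1 fall without control sample 3 or repletion sample 3. These were not always the same loci. Of the rises, 1 was among the original 5 without control sample 1, 4 without repletion sample 1 and 2 without each other library. A library held 0 to 125 counts of each of the 8 loci past the threshold.

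Gm23172, in an intron of the engulfment receptor gene Mertk, had 0, 2 and 0 counts in controls and 19, 12 and 19 in the repletion group. No control sample came near a repletion sample. Scaled to library totals, its 50 repletion counts were 25.6 times its 2 control counts, with an exact 95% interval of 6.73 to 217 that covers counting error only. The fitted log2 fold change was 4.37 ± 0.95 (adjusted p = 0.00157). It stayed past the threshold under all 14 alternatives that could be fitted, with values from 3.82 to 7.05, the last without control sample 2, which held both control counts. Its host Mertk had a log2 fold change of 0.14 ± 0.12 (adjusted p = 0.373). Per 1000 Mertk counts, Gm23172 had 0, 0.673 and 0 counts in controls and 5.64, 4.69 and 5.62 in the repletion group.

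Snord91a, a C/D snoRNA in Tsr1, whose protein acts in maturation of the small ribosomal subunit, had 1, 4 and 6 control counts against 12, 25 and 16. All repletion samples were above all controls, and the locus rose 4.68-fold (log2 2.23 ± 0.71, adjusted p = 0.0185). Tsr1 itself rose, with a log2 fold change of 0.79 ± 0.13 (adjusted p = 0.000124), so here the snoRNA and its host both passed in the same direction. The call of Snord91a was lost without control sample 1 or 2 or repletion sample 2 or 3, with adjusted p from 0.0553 to 0.0964.

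A pair of rising snoRNAs lay in genes of the TRiC chaperonin, which folds actin and tubulin. Gm23245 in Cct6a had 5, 13 and 1 control counts against 23, 18 and 37, and Snora20 in Tcp1 had 4, 9 and 7 against 15, 52 and 12. Groups did not overlap for either. Gm23245 rose 3.91-fold (log2 1.97 ± 0.68, adjusted p = 0.0294) and Snora20 3.89-fold (log2 1.96 ± 0.68, adjusted p = 0.0284). Cct6a fell by 0.37 on the log2 scale (SE 0.11, adjusted p = 0.0141), whereas Tcp1 had -0.16 ± 0.10 (adjusted p = 0.230). Snora20 rested on repletion sample 2, without which its log2 fold change was 0.94 (adjusted p = 0.351). It also lost its call without any 1 control sample and with limma-voom (adjusted p from 0.0530 to 0.103). The rise of Gm23245 was 3.02 without control sample 2 and 1.43 without control sample 3, and its call was lost without control sample 1, control sample 3 or repletion sample 3 (adjusted p = 0.0939, 0.136 and 0.160).

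Gm26109, in the mitochondrial chaperone gene Hspa9, had 9, 3 and 7 control counts against 18, 23 and 17 and rose 2.97-fold (log2 1.57 ± 0.61, adjusted p = 0.0493). Its groups did not overlap, yet the call held under 5 of 15 alternatives and was lost without each of the 6 samples in turn (adjusted p from 0.0604 to 0.200). Hspa9 fell, with a log2 fold change of -0.44 ± 0.09 (adjusted p = 0.00137).

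Of the 3 falls, Gm25517 in Gtf2f2, which encodes a subunit of the general transcription factor TFIIF, had 81, 86 and 55 control counts against 36, 13 and 25. The lowest control was above the highest repletion sample, and the locus fell 3.09-fold (log2 -1.63 ± 0.39, adjusted p = 0.00334). The call held under all 15 alternatives. Gtf2f2 fell less, by 0.37 on the log2 scale (SE 0.12, adjusted p = 0.0218). The snoRNA lies 22966 bases from the downstream exon, the longest such distance among the hosted members, whose median was 300. Per 1000 Gtf2f2 counts it went from 55.1, 51.5 and 31.5 to 25.2, 12.8 and 17.6, the single member whose ratio to its host was lower in every repletion sample.

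Gm22748 in Odc1, the gene of the rate-limiting enzyme of polyamine synthesis, had 96, 111 and 125 control counts against 94, 44 and 29. Repletion sample 1 lay just under the controls and the other repletion samples far below them. The fall was 2.03-fold (log2 -1.02 ± 0.33, adjusted p = 0.0218), and the host Odc1 fell with a log2 fold change of -1.01 ± 0.12 (adjusted p = 5.89e-06). Per 1000 Odc1 counts the snoRNA had 4.42, 5.66 and 5.38 counts in controls and 6.95, 4.57 and 3.03 in the repletion group, which overlap. The call was lost without control sample 2 or 3 or repletion sample 2 or 3 (adjusted p from 0.0562 to 0.103), and the log2 value was -1.59 without repletion sample 1.

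Snora78, an H/ACA snoRNA in Snhg9, had 13, 15 and 30 control counts against 4, 5 and 3. The groups were apart and the fall was 4.74-fold (log2 -2.24 ± 0.65, adjusted p = 0.0114). Snhg9 itself had 0 counts in all 6 libraries, while Rps2, a ribosomal protein gene on the opposite strand that spans Snora78, fell by 0.67 on the log2 scale (SE 0.13, adjusted p = 0.000557). Because no source used here states whether counting used strand, the Rps2 intron and Snora78 cannot be told apart by their reads. The call was lost without control sample 3 (adjusted p = 0.103) or repletion sample 3 (adjusted p = 0.0635).

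**Figure D2:**
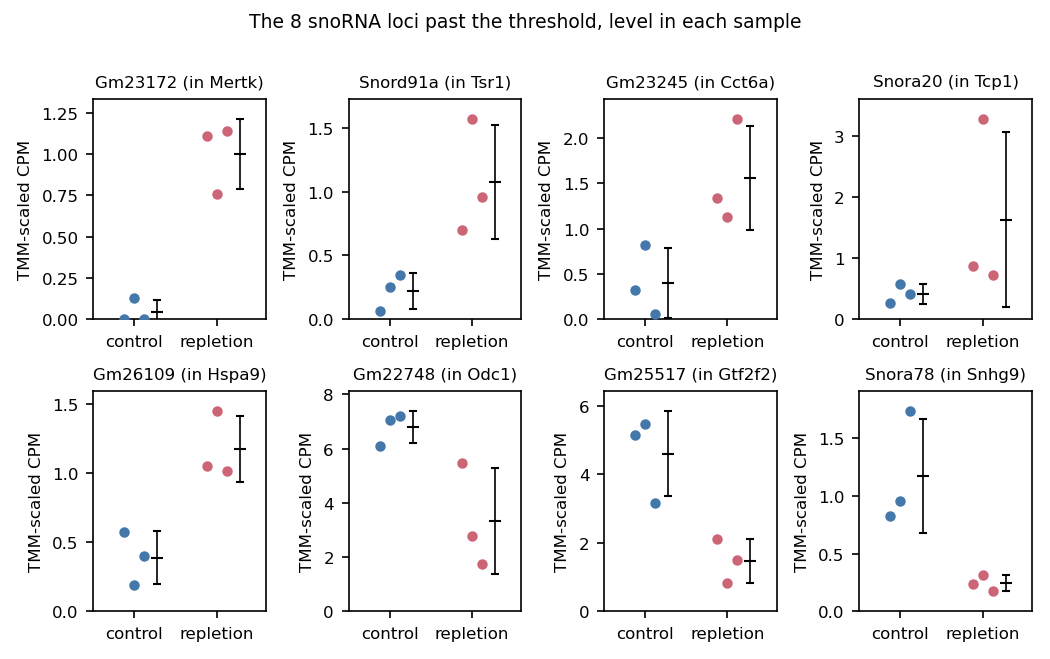
TMM-scaled CPM (vertical axis, from 0, scale differs by panel) of the 8 snoRNAs past the threshold in 3 control and 3 repletion samples, named with their hosts; points are samples, the dash and bars are the mean and SD. In each panel the groups do not overlap, and Snora20 has 1 repletion sample far above the others.

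Snora57 and Gm24463, which had 137 and 125 counts in all, lay lower in the repletion group without passing. Snora57 had 39, 32 and 19 counts against 19, 13 and 15 (log2 -0.98 ± 0.50, adjusted p = 0.129), and Gm24463 had 38, 25 and 22 against 8, 13 and 19 (log2 -1.11 ± 0.53, adjusted p = 0.102). Neither has a host on its own strand, and each has a copy of at least 95% identity elsewhere, as do 8 other members, so their counts are uncertain. Snora57 lies within Lbhd1 on the opposite strand, which had 9, 5 and 10 counts against 119, 140 and 163 and rose (log2 4.09 ± 0.35, adjusted p = 2.73e-07). These 2 loci were chosen after their values were seen.

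By class, taken from the name or the boxes, the C/D members had 1 rise and 0 falls among 16 tested of 25. H/ACA members had 2 rises and 3 falls among 21 tested of 28, and members of neither class 2 rises and 0 falls among 10 tested of 18. Among the classes with 0 falls, 1 C/D member and 0 of the others had a negative value with an unadjusted edgeR p under 0.05, and 0 fell by DESeq2 or limma-voom. At like counts 18.1% of all tested features rose and 7.18% fell, so 0 falls among 16 or 10 says little of a class. The difference between classes was not tested.

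The 63 hosted snoRNAs lay in 54 hosts, 9 of which held 2 members. Of these hosts, 14 were ribosomal protein genes (Rps or Rpl) with 19 members. Of the 52 hosts tested, 11 rose (21.2%) and 27 fell (51.9%), beside 20.5% and 19.2% of all tested features. The hosts' share of rises was near that of all features. Their median log2 fold change was -0.30, beside a median of 0.00 over all tested features. Among the ribosomal protein hosts, 12 of 14 fell and 0 rose by edgeR, DESeq2 or limma-voom, with 0 positive values at an unadjusted edgeR p under 0.05 and a median of -0.62. Rpl37 fell by 0.92 on the log2 scale (adjusted p = 7.36e-05). Of the snoRNAs inside these 14 hosts, 15 were tested and 0 passed in either direction by edgeR, DESeq2 or limma-voom. An unadjusted edgeR p under 0.05 was found for 0, and 11 had a positive log2 fold change. With so few counts a fall of the hosts' size could be missed, so 0 passing says little of these snoRNAs. The median of the 15 was 0.57, beside 0.19 for all tested features in the snoRNA members' range of summed counts. Summed, these 14 hosts took 13418 ± 989.6 CPM in controls and 9499 ± 125 in the repletion group (SD, n = 3 each; exact two-sided permutation p = 0.1, the smallest possible). Their 19 snoRNAs took 23.1 ± 6.42 and 29.9 ± 6.89 (exact permutation p = 0.3).

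Set beside their own hosts, most snoRNAs had the larger log2 fold change. In the 40 pairs where both were tested, in 36 hosts, the snoRNA's value was above the host's in 34 and below it in 6. The median difference, snoRNA minus host, was 0.99 on the log2 scale. In these pairs the median was 0.63 for the snoRNAs and -0.39 for the hosts. All tested features in the snoRNA members' range of summed counts had a median of 0.19, also above that of the hosts. How often such features would lie above these hosts was not tested, so the 34 of 40 has no background. With no filter, the snoRNA was above in 49 of 62 pairs and the median difference was 0.75. Of 27 tested pairs whose host fell, 16 snoRNAs had a positive value. Leaving out each library gave median differences of 0.73 to 1.17. Pairs share libraries and some share hosts, so no p-value was computed over them, and the number of reads per snoRNA is small beside that of its host.

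**Figure D3:**
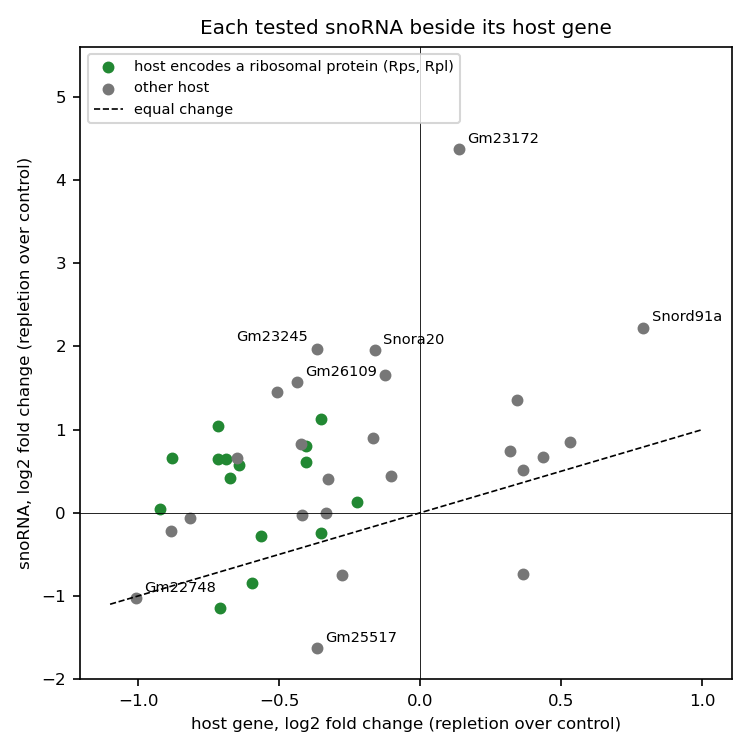
Log2 fold change (repletion over control) of each tested snoRNA (vertical) against that of its host gene (horizontal), 40 pairs; green points have ribosomal protein hosts, and the dashed line marks equal change. Of the 40 points, 34 lie above the line, and all 15 green points lie left of 0.

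Counts of each snoRNA per 1000 counts of its host give the same comparison sample by sample for 61 pairs. The repletion samples were all above the controls for 17 snoRNAs (27.9%) and all below for 1 (1.64%). For 42 features annotated as sense intronic transcripts, which also sit inside other genes, the same ratio was apart in the higher direction for 8 (19.0%) and in the lower for 4 (9.52%). Snora31 went from 0.696, 0.695 and 0.787 to 1.45, 0.929 and 1.30 per 1000 Tpt1 counts. The groups were apart while the snoRNA's own groups overlapped and the host fell. Gm25945 had a mean of 10.1 counts per 1000 Khdc4 counts in controls and 23.8 in the repletion group, a ratio of 2.37 with groups apart. Gm27326 in Rpl23 had 2.29, 3.20 and 4.76 against 13.6, 14.9 and 8.23, and Gm22362 in the RNA-binding protein gene Ybx3 had 0.115, 0.843 and 0.468 against 2.03, 1.88 and 1.48. The last 2 were chosen after their values were seen.

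SnoRNAs of the same host did not always share a direction. In Kansl2, which encodes a chromatin complex subunit, Snora2b had 7, 14 and 17 control counts against 30, 28 and 14, while Snora34 had 27, 12 and 8 against 4, 0 and 9. Of the 137 bases of Snora2b, 92 are annotated as exon in another Kansl2 transcript, so reads of that exon cannot be told apart from reads of Snora2b. Kansl2 itself had -0.17 ± 0.10 (adjusted p = 0.198). The sequences of this H/ACA pair share a run of 19 bases, agctgttggtttcaagcag, that begins at base 36 of Snora34 and base 33 of Snora2b, counted from the 5′ end. In Rps3a1, Snord73a is listed above, and Rnu73b had 2, 3 and 18 control counts against 27, 10 and 14. The Rps3a1 pair are C/D snoRNAs that share the 13 bases tgtttcggtccca at base 18 of each, as shown here with the boxes in capitals.
Snord73a: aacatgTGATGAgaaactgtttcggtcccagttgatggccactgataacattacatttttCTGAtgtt
Rnu73b: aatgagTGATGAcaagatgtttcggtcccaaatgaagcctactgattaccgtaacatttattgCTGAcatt
Without control sample 3, Rnu73b had a log2 fold change of 2.61 (adjusted p = 0.0430), against 1.13 (adjusted p = 0.229) in all 6 samples and 0.0430 to 0.587 over all alternatives. These pairs were picked out by their values, and the difference between members of a host was not tested.

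The Snhg and Gas5 loci held far more counts than the snoRNAs. Counts were not scaled to length, and Gas5 and Snhg1 have 3760 and 2969 annotated exon bases. The snoRNAs inside both had 0 counts, so the levels of host RNA and snoRNA cannot be compared here. Annotated exons cover 100% of the span of Snhg1, Snhg8 and Snhg12, so their spliced and unspliced RNA cannot be told apart. Together they took 403 ± 2.44 CPM in controls and 435 ± 34.5 in the repletion group (SD, n = 3 each; exact two-sided permutation p = 0.4). Of the 17 loci, 13 were tested: 3 rose (Snhg1, Snhg4 and Snhg17) and 3 fell (Snhg8, Snhg12 and Snhg15), beside 20.5% and 19.2% of all tested features. The 3 of 13 in each direction, or 23.1%, is near those shares.

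Snhg1, which hosts a group of C/D snoRNAs, had 1219, 1169 and 1379 control counts against 1875, 1561 and 1684. Every repletion sample exceeded every control. It rose 1.33-fold from 77.1 ± 2.70 to 103 ± 5.85 CPM (log2 0.42 ± 0.10, adjusted p = 0.00425). Snhg4 had 177, 124 and 136 counts against 314, 296 and 225 and rose 1.87-fold (log2 0.90 ± 0.20, adjusted p = 0.00190). Both calls held under all 15 alternatives. Snhg17 had 707, 733 and 797 counts against 1172, 992 and 858, with repletion sample 3 the nearest to the controls, and rose 1.33-fold (log2 0.41 ± 0.12, adjusted p = 0.0153). That call was lost without any 1 control sample or repletion sample 1 (adjusted p from 0.0530 to 0.0645). Snhg4 overlaps Gm28285 and Snhg17 overlaps Gm23925, each on its own strand, and no source used here states how overlapping features were counted.

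Snhg12 had 166, 151 and 206 control counts against 93, 95 and 73. It fell 2.03-fold, from 10.7 ± 1.15 to 5.26 ± 0.817 CPM (log2 -1.02 ± 0.22, adjusted p = 0.00133). Snhg15 had 359, 414 and 495 counts against 315, 219 and 224 and fell 1.70-fold (log2 -0.77 ± 0.16, adjusted p = 0.00139). Snhg8 had 345, 429 and 453 counts against 264, 293 and 267 and fell 1.51-fold (log2 -0.60 ± 0.15, adjusted p = 0.00494). Groups were apart for all 3, and their calls held under all 15 alternatives.

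Gas5, the growth-arrest host transcript and the most abundant of the family, had 2176, 2048 and 2222 control counts against 2213, 1975 and 1808. The groups overlapped, at 132 ± 5.50 and 121 ± 10.9 CPM, and the log2 fold change of -0.13 ± 0.10 had an adjusted p of 0.336. Snhg6 had 782, 778 and 887 counts against 653, 799 and 702 (log2 -0.20 ± 0.13, adjusted p = 0.212). Snhg5 had 391, 354 and 449 counts against 499, 524 and 450, and its scaled groups did not overlap, but the log2 fold change of 0.28 ± 0.14 had an adjusted p of 0.117. Snhg20 had 100, 119 and 145 counts against 133, 211 and 162 (adjusted p = 0.117). It rose once repletion sample 1 was left out (adjusted p = 0.0357, against 0.0357 to 0.468 over all alternatives).

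The rest of the family had few counts. Snhg14, the long transcript of the Prader-Willi and Angelman region, had 43, 33 and 17 counts against 30, 51 and 43 with 0 counts on the 208 snoRNA features it spans. Snhg10 had 27, 24 and 32 against 16, 19 and 39. Snhg7os, an antisense locus with 0 snoRNA features inside, had 12, 11 and 5 against 8, 23 and 6. All 3 had overlapping groups. Snhg3 had 2 counts, both in control sample 2, and Snhg18 had 2, both in repletion sample 3. Snhg9 and Snhg11 had 0 counts in every library, which allows up to 3 counts, or 0.173 to 0.191 CPM, for counting error only. Snhg9 overlaps Rps2 on the other strand, and Snhg3 overlaps Rcc1 on its own strand. No source used here states how overlapping features were counted, so few counts at these loci need not mean a low level.

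**Figure D4:**
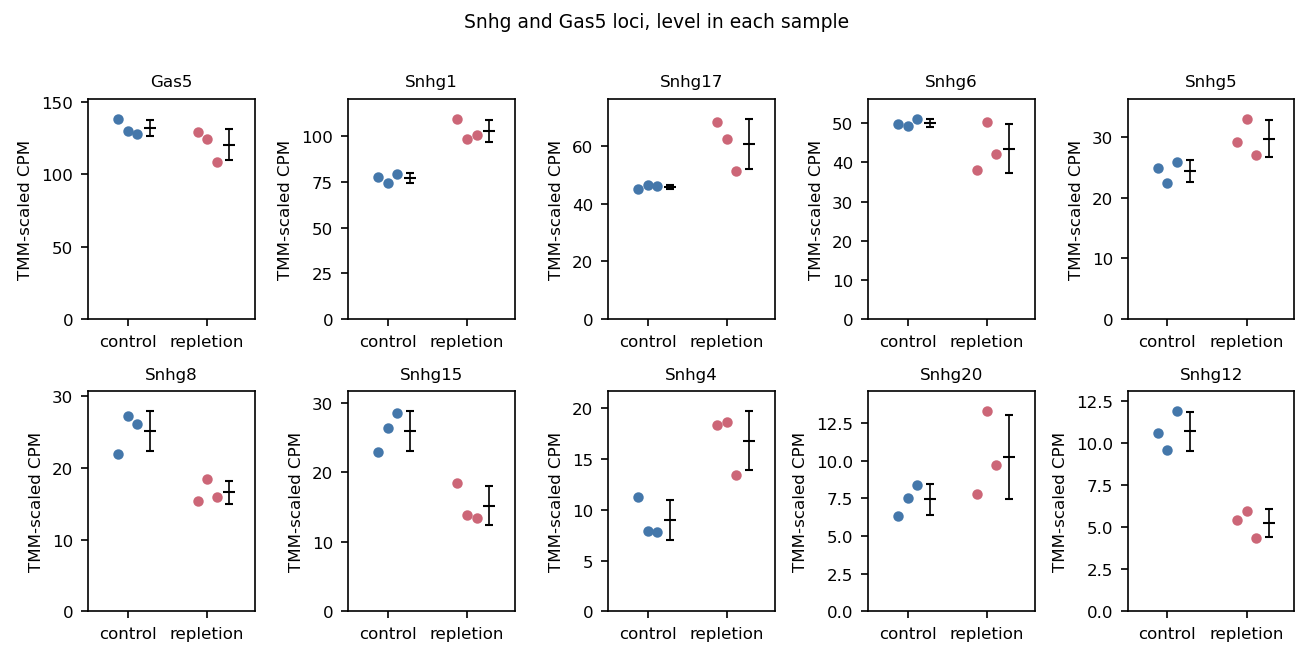
TMM-scaled CPM (vertical axis, from 0, scale differs by panel) of the 10 most abundant Snhg and Gas5 loci in 3 control and 3 repletion samples; points are samples, the dash and bars are the mean and SD. Snhg1, Snhg17, Snhg4 and Snhg5 lie higher and Snhg8, Snhg15 and Snhg12 lower in every repletion sample, and of these Snhg5 did not pass the test.

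Of 46 listed genes for proteins that make or stabilise snoRNAs or decay their hosts, 45 were found and all were tested: 11 rose (24.4%) and 4 fell (8.89%), beside 20.5% and 19.2% of all tested features. The share of rises was near that of all features. The median log2 fold change of 0.12 was 0.07 without repletion sample 3. In the core of the C/D particle, the scaffold gene Nop58 rose by 0.70 ± 0.10 on the log2 scale, from 126 ± 3.47 to 205 ± 12.9 CPM (adjusted p = 4.14e-05). Its partner Nop56 (-0.33 ± 0.11, adjusted p = 0.0221) and the 15.5K protein gene Snu13 (-0.40 ± 0.11, adjusted p = 0.00783) fell, and the methyltransferase gene Fbl had 0.03 ± 0.15 (adjusted p = 0.888). The fall of Nop56 was lost with scaling by library size only and without control sample 3 or repletion sample 2 or 3 (adjusted p from 0.0623 to 0.105), while the calls of Nop58 and Snu13 held under all 15 alternatives. Both Nop58 and Nop56 are themselves hosts: Nop58 holds Gm26287 and Snord70, and Nop56 holds Snord110.

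None of the 4 H/ACA core genes passed by edgeR's test: Dkc1, the pseudouridine synthase gene, had 0.17 ± 0.10, Gar1 had 0.24 ± 0.22, Nhp2 had -0.26 ± 0.21 and Nop10 had 0.32 ± 0.18 (adjusted p from 0.168 to 0.396). The unadjusted p was under 0.05 for 0 of them, and 0 passed by DESeq2 or limma-voom. Nhp2 passed as a fall without repletion sample 1 (adjusted p = 0.00491, against 0.00491 to 0.990 over all alternatives), and Nop10 as a rise without repletion sample 2 (adjusted p = 0.0318, against 0.0318 to 0.583). Of 11 assembly factors, 3 rose and 1 fell. The largest rise was that of Shq1, the dyskerin chaperone gene, at 0.94 ± 0.16 (adjusted p = 0.000243), and the fall was that of Nufip1, an adaptor of the C/D assembly complex, at -0.29 ± 0.10 (adjusted p = 0.0283). The call of Nufip1 held under 9 of 15 alternatives and was lost with the replicate block (adjusted p = 0.0704), with library size only and without control sample 1 or 3 or repletion sample 1 or 3 (adjusted p from 0.0531 to 0.0806 over all 6). Of 7 Cajal body and cap genes, 1 passed: Coil, the coilin gene, fell (-0.43 ± 0.14, adjusted p = 0.0255). That call was lost with library size only and without control sample 1 or 2 or repletion sample 3 (adjusted p from 0.0553 to 0.109). Of the 8 debranching and trimming genes, 0 passed by edgeR, DESeq2 or limma-voom, and 1 in each direction had an unadjusted edgeR p under 0.05. The nearest in each direction were the exonuclease gene Xrn1 (0.26 ± 0.12, adjusted p = 0.0832) and the deadenylase gene Parn (-0.30 ± 0.12, adjusted p = 0.0596). Xrn1 passed with library size only or without control sample 2 (adjusted p = 0.0389 and 0.0421, against 0.0389 to 0.310 over all alternatives), and Parn without repletion sample 1 (adjusted p = 0.0410, against 0.0410 to 0.165).

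Of 4 U3 particle genes, 2 rose. Imp4 rose by 0.60 ± 0.15 (adjusted p = 0.00477) and Imp3 by 0.51 ± 0.14 (adjusted p = 0.00654), the latter lost without control sample 2 (adjusted p = 0.0558). Rrp9 (-0.16 ± 0.13, adjusted p = 0.354) and Mphosph10 (0.07 ± 0.11, adjusted p = 0.653) did not pass. Of 7 genes for nonsense-mediated decay, which degrades many Snhg RNAs, 5 rose and 0 fell by edgeR, beside 20.5% and 19.2% of all tested features. There were 0 negative values at an unadjusted edgeR p under 0.05 and 0 falls by DESeq2 or limma-voom. The difference in shares was not tested, nor was any link to the Snhg values. Smg1, the kinase gene, rose by 0.71 ± 0.11 (adjusted p = 8.31e-05) and Smg5 by 0.66 ± 0.11 (adjusted p = 0.000247). Upf1 and Upf2 rose by 0.36 and 0.43. The call of Upf1 was lost under 6 of 15 alternatives (adjusted p from 0.0524 to 0.164): the replicate block (0.0628), no filter, and without control sample 1 or 2 or repletion sample 1 or 3. That of Upf2 was lost without control sample 3 or repletion sample 3 (adjusted p = 0.0668 and 0.0573). Over the whole list, leaving out control sample 3 or repletion sample 3 left 7 rises, and without control sample 1, control sample 3 or repletion sample 3 there were 2 falls.

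**Figure D5:**
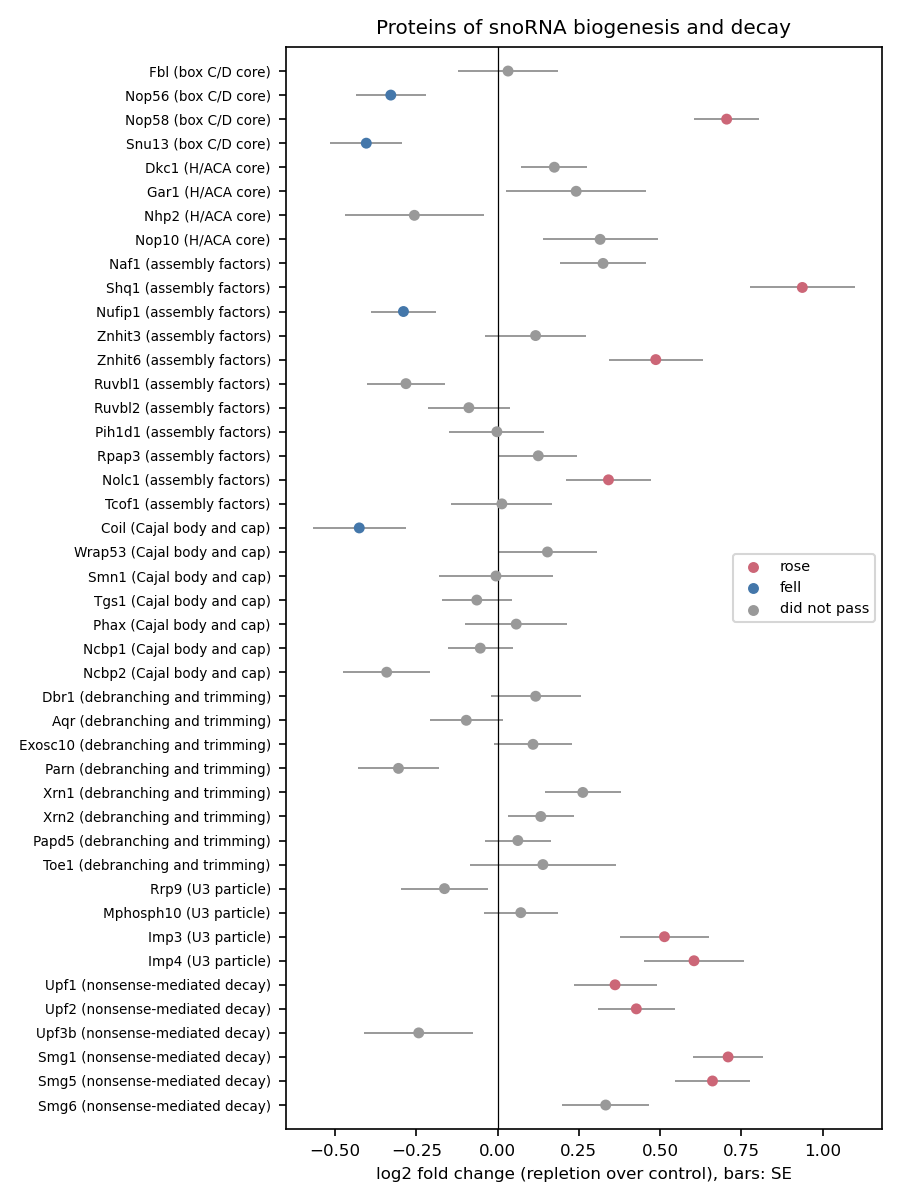
Log2 fold change (repletion over control, horizontal, bars SE) of 44 of the 45 genes of snoRNA biogenesis and decay, grouped by role; red points rose, blue points fell and grey points did not pass the test. Of the 6 nonsense-mediated decay genes shown 4 are red, and in the C/D core 1 is red and 2 are blue.

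The samples carried listed markers of endothelial cells, the cell type named in their label. Of these markers, 11 of 12 were detected in all 6 libraries. Their sum was 2391 to 2667 CPM in controls and 2535 to 2983 in the repletion group. Kidney tubular markers, of which 5 of 13 (Epcam, Krt18, Lhx1, Slc34a1 and Umod) were at 0, summed to 9.37 to 12.6 and 19.1 to 27.6. Of these 13, 5 were detected in all libraries. Leukocyte markers, with Cd3e and Itgam at 0, summed to 378 to 416 and 223 to 311. Only 2 of these 7 were detected in all libraries, so the sum can rest on few genes. Fibroblast markers, with 3 of 6 detected in all libraries, summed to 20.3 to 22.5 and 16.7 to 24.9. Lung epithelial markers, with 0 of 6 detected in all libraries, summed to 0.168 to 0.740 and 0.0604 to 0.513. Lymphatic endothelial markers, with 3 of 4 detected in all libraries, summed to 77.1 to 101 and 116 to 133. The part of these differences in the snoRNA results was not tested. The labels do not say whether replicates were separate cultures, so the p-values cover the spread between these libraries, which may be technical.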

How the data were processed

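RNA-seq libraries of 3 control and 3 repletion samples were compared, grouped by the sample titles. Per the submitters' processing notes, HISAT2 2.0.5, featureCounts 1.5.0-p3, DESeq2 1.20.0 and GRCm38.p6 were used, without roles; the sources used here do not state the strand setting, annotation release or multi-mapping rule. The authors deposited whole-number read counts per feature, which were tested. The deposited FPKM, normalised count signal, log2 fold changes and p-values (per the file headers) were not used. TRIzol extraction is stated in the labels' protocols.

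Counts of 15582349 to 17817618 per library were filtered with filterByExpr by group (13804 features kept, 41428 removed), scaled by TMM (factors 0.970 to 1.03) and tested by the quasi-likelihood test of edgeR 4.0.16 (R 4.3.3), two-sided, with Benjamini-Hochberg adjustment over all tested features and a threshold of 0.05. The common BCV (biological coefficient of variation) was 14.1%. SE were derived from the F statistic, and SD are over 3 samples. The test was tried on simulated data. Replicates of a group differed beyond sampling noise (chi-square per feature 9.20 to 26.0) and were counted singly. Hosts, exons and sequences came from GENCODE M21 on GRCm38, which gave 87 of 88 members the deposited position; copies were sought with BLAST 2.17.0.

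The members and lists were chosen with earlier results of these data known. Named snoRNAs were the 10 with the most counts and those past the threshold with groups apart, up to 6 in each direction; named protein genes were the 8 core genes and the smallest p in each direction of each sublist. Others were chosen after their values were seen, as were the comparison with sense intronic transcripts and the unfiltered medians. Alternatives were DESeq2 1.42.0, limma-voom (limma 3.58.1), RLE, upper quartile, library size only, TMM from protein-coding features, no filter, at least 1 CPM in 3 samples, a replicate block, and each sample left out. The values of 1 of the 10 most abundant snoRNAs and of 1 listed gene, and 1 further sequence, are not reported here.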

Additional observations from a re-analysis of the deposited data

How the results depend on the processing

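The rising snoRNAs numbered 5 and the falling 3. With a minimum of 1 CPM in 3 samples, 2 rose, and fewer of the scarce loci were tested. Leaving out each sample gave 3 to 5 rises and 1 to 3 falls. Of these rises, 1 to 4 were among the 5 called with all samples. In the list of biogenesis and decay genes, leaving out each sample gave 7 to 13 rises and 2 to 6 falls, and scaling by library size only gave 1 fall in place of 4; the cause was not tested. Snhg and Gas5 calls numbered 2 or 3 rises and 3 falls under every alternative run. Replicate numbers did not pair the samples (same-number correlations of -0.076, -0.033 and 0.055). With the replicate block, 4 snoRNAs rose and 3 fell, 3 Snhg loci rose and 3 fell, 9 listed genes rose and 3 fell, and 2485 of all features rose and 2353 fell, with a median snoRNA to host difference of 0.94. No named locus past the threshold changed direction under an alternative. Depth limits the snoRNA results, with a median of 74 counts over 6 libraries.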

Other observations

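Other members with ratios to their hosts that were apart in the repletion group included Snord71 in Ap1g1, an adaptor protein gene of clathrin vesicles, and Gm22806 in Cks2, a cell cycle regulator gene. Snord71 had 1, 3 and 2 counts in controls and 16, 10 and 6 in the repletion group, too few to pass the filter. Gm22806 had 10, 10 and 8 counts against 17, 17 and 18, with a log2 fold change of 0.85 ± 0.56 (edgeR adjusted p = 0.237), while Cks2 rose by 0.53 ± 0.14 (adjusted p = 0.00651). Gm22806 has 2 copies of at least 95% identity among other features, so its counts are uncertain. Snora41 in Eef1b2, a translation elongation factor gene, had 31, 8 and 13 counts against 26, 29 and 29, while Eef1b2 fell by 0.65 on the log2 scale. Snora41 has 1 copy of 97.7% identity, so its counts are uncertain too. Snora23 in Ipo7, a nuclear import receptor gene, had 11, 6 and 4 counts against 45, 8 and 17 (adjusted p = 0.0616) and passed without repletion sample 2 (adjusted p = 0.0265, against 0.0265 to 0.477 over all alternatives). These loci were chosen after their values were seen.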
